A study of Mus musculus with 8 samples.

Results

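The Polycomb complex genes examined here are Ezh1, Ezh2, Eed, Suz12, Jarid2, Rnf2, Ring1, Bmi1, Pcgf6 and Cbx7, 10 of the 22013 genes in the expression table, each taken by its symbol and each found as 1 row. All 10 passed the filter on low counts and were among the 12366 genes tested. RNA with poly(A) tails was sequenced from 8 pools of 5 mouse blastocysts each, made by in vitro fertilisation of wild-type ICR (outbred) gametes and grown in KSOM medium. Embryos of 4 agomir pools were exposed to 50 nM miR-21-5p agomir, a chemically modified double-stranded mimic of the microRNA, from fertilisation until they were blastocysts (about 75 h). Embryos of 4 blank control pools received vehicle without any oligonucleotide, so the comparison holds no unrelated oligonucleotide. All pools carry the label of 1 batch, and nothing says whether replicates came from separate parents or fertilisation sessions, so a p-value here covers only how far these pools differ, which may be technical.

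Polycomb proteins keep genes silent through chromatin. Polycomb repressive complex 2 (PRC2) methylates lysine 27 of histone H3 through Ezh2 or its paralog Ezh1, which work only together with Eed and Suz12, and Jarid2 is an accessory subunit that helps bring PRC2 to its targets. Polycomb repressive complex 1 (PRC1) attaches ubiquitin to histone H2A through Rnf2 (RING1B) or its paralog Ring1 (RING1A), each paired with a Pcgf protein such as Bmi1 or Pcgf6, and its canonical forms carry a Cbx protein such as Cbx7 that reads methylated H3. In the early embryo PRC2 is known for holding developmental regulators silent and for a maternal form of imprinting.

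The agent added to the medium was a mimic of miR-21-5p, so its sequence and the matches to it in these genes come first. The mature strand (RefSeq, mmu-miR-21a-5p, GRCm38.p6, chr11:86584120-86584141, minus strand) is shown with its seed, bases 2 to 8, in capitals.
miR-21-5p: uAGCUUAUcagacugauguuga
A messenger RNA that pairs with the whole seed holds ATAAGCT. The search used, for each gene, the longest 3′ untranslated region in the annotation (GENCODE M21, GRCm38, not the GRCm39 build of the deposited table), on the transcript strand only. Of the Polycomb genes, 3 held the 7-base match, Suz12 at 2 positions and Rnf2 and Ring1 at 1 each. It was also in 3 of the 40 other Polycomb and opposing genes listed further on, and in 7.85% of the 12222 tested genes with such a region. The region was longer in the 10 genes (median 1758 bases) than in those tested genes (median 1124 bases). The sites are shown with 10 bases on either side and the match in capitals.
Suz12 first site: atccatacagATAAGCTgacttgaatt
Suz12 second site: gttaagggacATAAGCTttctcatggt
Rnf2 site: atttgtgactATAAGCTttgtgcttag
Ring1 site: ggaattaaaaATAAGCTagttgagtgg
The Suz12 matches lie at chr11:80033082-80033088 and chr11:80033386-80033392 (plus strand), bases 892 and 1196 of a region of 1933 bases. The Rnf2 match lies at chr1:151469474-151469480 (minus strand), at base 1836 of 1911, and the Ring1 match at chr17:34020837-34020843 (minus strand), at base 539 of 590. The Ring1 site alone among these 4 is followed by an A, which makes the longer match ATAAGCTA. Ezh1 and Bmi1 held only the 6-base core TAAGCT, found in 26.1% of tested genes and contained in the longer match, and the other 5 genes held neither. A match describes letters in the annotated region and was not tested as a binding site.

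Library totals were 18799156 to 23147449 counts in agomir libraries and 12246102 to 21271696 in control libraries. Agomir 3 lay apart from the rest on the second principal component and control 2 on the first. Agomir 3 had the highest CPM (counts scaled to library size) of 4 of the 10 genes and control 3 the lowest of 5. The 9 trophectoderm markers were all measured and summed to 2215 to 7245 CPM in agomir libraries, with agomir 3 highest, and 1871 to 3568 CPM in controls. Krt8 and Krt18 made up most of these sums, with 2907 and 3539 CPM in agomir 3. All 9 had a log2 fold change above 0 (50.6% of all genes tested) and 5 of them an unadjusted p under 0.05 (2.64% of all genes, in that direction), while 0 passed edgeR's adjusted threshold (smallest adjusted p = 0.678). The 7 measured inner cell mass markers summed to 266 to 383 against 288 to 426 CPM, and the 6 primitive endoderm markers to 133 to 196 against 133 to 189 CPM. The blastocyst label thus had its markers in every library. Of the inner cell mass markers 2 had a log2 fold change above 0 and 5 below, with 0 at an unadjusted p under 0.05. Of the primitive endoderm markers 3 lay above 0 and 3 below. Hnf4a, 1 of those below, was at -1.12 (SE 0.40, edgeR unadjusted p = 0.0158, adjusted p = 0.678). All its agomir libraries lay below all controls by CPM. Over all genes tested, 3.74% were lower at an unadjusted p under 0.05 and 2.47% stood wholly below. Cumulus and granulosa markers summed to 6.36 to 19.4 CPM with the agomir and 23.04 to 63.7 CPM in controls, with control 3 highest. Most of that was Cyp11a1 (10.5 ± 4.82 and 37.0 ± 16.7 CPM, SD, n = 4 each). The sum thus followed 1 gene, and which cells its RNA came from was not tested. All agomir libraries lay below all controls for Cyp11a1 by CPM (2.47% of all genes tested). The log2 fold change of Cyp11a1 was -1.81 (SE 0.38, unadjusted p = 0.000496), and it did not pass the adjusted threshold (edgeR adjusted p = 0.362). Star reached at most 0.73 FPKM (counts scaled to library size and length), Foxl2, Amh, Fshr, Inhba and Has2 at most 0.36 FPKM, and Cyp19a1 had no count. In bulk pools fewer cells of a type and less RNA per cell cannot be told apart, and the part of cell composition in the Polycomb values was not tested.

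None of the 10 Polycomb genes differed between agomir and blank control pools beyond the spread between pools. In edgeR's quasi-likelihood test the adjusted p-values lay between 0.831 (Jarid2) and 0.996 (Eed), and 0 of 10 had an unadjusted p under 0.05. Among all 12366 genes tested, 0 passed the adjusted threshold of 0.05 (0%), while 789 (6.38%) had an unadjusted p under 0.05, 326 higher with the agomir (2.64%) and 463 lower (3.74%). DESeq2 called 33 genes (0.267%), 0 of them among the 10. For each of the 10 the agomir and control libraries overlapped, both in CPM and in FPKM. Among all genes tested the groups stood wholly apart for 3.89% by CPM, with the agomir above for 1.42% and below for 2.47%, and for 3.9% by FPKM. The fold change was above 0 for 6 of the 10 and below 0 for 4 (50.6% of all genes tested were above 0), with a median of 0.066 on the log2 scale against 0.0048 for all genes. By mean FPKM the split was 4 higher and 6 lower, with Ezh2 and Pcgf6 on the lower side. Plain library totals in place of TMM put the all-gene median at -0.11, and with them Ezh2, Rnf2 and Pcgf6 turned to just below 0.

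**Figure D1:**
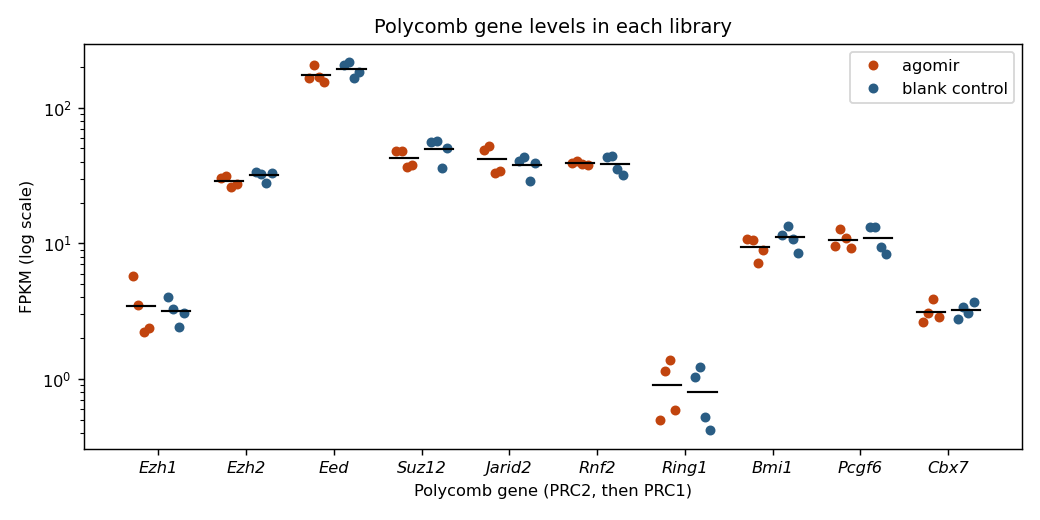
FPKM (log axis) of the 10 Polycomb genes in each library, 4 agomir libraries on the left of each gene and 4 blank control libraries on the right, with a line at each group mean. Levels run from 0.42 to 215.26 FPKM between genes, while the groups overlap within every gene.

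The genes differed far more from each other than between groups. On the FPKM scale Eed stood highest at a mean of 183 over the 8 libraries (154 to 215), above 94.2% of tested genes. Suz12 (46.3), Jarid2 (39.97), Rnf2 (38.9) and Ezh2 (30.2 FPKM) followed. Each of these neighbours overlapped with the next over the 8 libraries. Suz12 (36.01 to 57.13 FPKM) nevertheless lay wholly above Ezh2 (25.89 to 33.46 FPKM), and Rnf2 exceeded Ezh2 in 7 of the 8 libraries. Eed was apart from Suz12, and Ezh2 was apart from the next pair, Pcgf6 (10.8) and Bmi1 (10.2 FPKM), which overlapped. Ezh1 (3.34) and Cbx7 (3.17 FPKM) overlapped too and lay below Bmi1 in every library. Ring1 was lowest at 0.858 FPKM (0.42 to 1.39), above 17.9% of tested genes. Within every library Eed exceeded Ezh2 between 5.47-fold and 6.66-fold per length.

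Among the PRC2 catalytic genes, Ezh2 (ENSMUSG00000029687, chromosome 6), the main methyltransferase, had 45.1, 47.8, 62.6 and 51.3 CPM in agomir libraries 1 to 4, against 54.7, 49.5, 44.7 and 50.9 CPM in blank control libraries 1 to 4. By CPM agomir 3 was the highest of all and the other 3 agomir libraries lay within the control range. By FPKM agomir 3 was instead the lowest of all, at 25.89. Agomir 4 (27.61 FPKM) also lay below every control (27.99 to 33.46 FPKM), while agomir 1 and 2 lay within their range. The log2 fold change was 0.050 (SE 0.17, 95% interval -0.31 to 0.41, edgeR adjusted p = 0.969). Ezh1 (ENSMUSG00000006920, chromosome 11), the paralog better known from non-dividing cells, had 23.5, 13.6, 10.5 and 10.99 CPM with the agomir, against 15.7, 11.98, 9.77 and 13.2 CPM in controls. A single library, agomir 1, stood above the rest. The log2 fold change was 0.21 (SE 0.28, 95% interval -0.40 to 0.83, edgeR adjusted p = 0.913), and it turned to -0.11 without agomir 1.

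Eed (ENSMUSG00000030619, chromosome 7), the subunit that binds methylated H3, had the smallest coefficient of variation of the 10 in the control group (5.56% of its mean CPM). In the agomir group it was 8.86%, above those of Suz12 (5.21%), Rnf2 (6.66%) and Bmi1 (7.93%). Eed had 206, 243, 249 and 219 CPM in agomir libraries, against 242, 232, 212 and 234 CPM in control libraries. The groups covered the same range, and the log2 fold change was -0.0059 (SE 0.15, 95% interval -0.33 to 0.32). Suz12 (ENSMUSG00000017548, chromosome 11), the scaffold of PRC2 and the gene with 2 seed matches, had 203, 193, 181 and 184 CPM with the agomir, against 229.9, 217, 154 and 225 CPM in controls. All agomir libraries lay below 3 of the controls and above control 3. The log2 fold change was -0.12 (SE 0.17, 95% interval -0.48 to 0.25, edgeR adjusted p = 0.924). Without control 3 it was -0.23 (unadjusted p = 0.187, edgeR adjusted p = 0.718).

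Jarid2 (ENSMUSG00000038518, chromosome 13), which helps bring PRC2 to chromatin, had the smallest p of the 10. It had 285, 287, 222 and 228 CPM in agomir libraries, against 226, 227, 170 and 239 CPM in control libraries. Agomir 1 and 2 exceeded every control, and agomir 3 lay below 3 of them. The log2 fold change was 0.25 (SE 0.17, 95% interval -0.13 to 0.63, unadjusted p = 0.182, edgeR adjusted p = 0.831), and it stayed above 0 in all 17 alternative fits (0.14 to 0.34), with an adjusted p of at least 0.711 in each.

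In PRC1, Rnf2 (ENSMUSG00000026484, chromosome 1), the main ubiquitin ligase, had 120, 112, 132 and 122 CPM in agomir libraries, against 127, 123, 102 and 104 CPM in control libraries. The agomir libraries sat within or just above the control range, and the log2 fold change was 0.095 (SE 0.15, 95% interval -0.24 to 0.43). Ring1 (ENSMUSG00000024325, chromosome 17), its paralog, was near the lower end of detection with 20, 45, 53 and 28 counts in agomir libraries, against 26, 48, 23 and 18 counts in control libraries. Its mean was 1.94 ± 0.981 CPM with the agomir and 1.55 ± 0.668 CPM in controls (SD, n = 4 each), and the groups overlapped. Its interval was the widest of the 10, with a log2 fold change of 0.32 (SE 0.48, 95% interval -0.72 to 1.361). Without agomir 3 the value was -0.027, and without control 2 it was 0.56. A change of 2-fold in either direction for Rnf2 lies outside its interval, while for Ring1 a 2-fold rise lies inside it.

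The Pcgf proteins decide which PRC1 form is built. Bmi1 (Pcgf4, ENSMUSG00000026739, chromosome 2), of canonical PRC1, had 32.3, 29.6, 26.7 and 30.6 CPM in agomir libraries, against 34.1, 39.7, 32.7 and 27.2 CPM in control libraries. The agomir libraries lay in and below the lower part of the control range (log2 fold change -0.17, SE 0.17, 95% interval -0.54 to 0.21). Pcgf6 (ENSMUSG00000025050, chromosome 19), of a variant PRC1 that keeps germline genes silent, had 20.6, 25.8, 26.8 and 22.4 CPM with the agomir, against 26.99, 24.7, 20.1 and 18.6 CPM in controls. The groups spanned nearly the same values (log2 fold change 0.082, SE 0.19, 95% interval -0.33 to 0.50). Cbx7 (ENSMUSG00000053411, chromosome 15), a reader of methylated H3, had 5.37, 8.02, 7.21 and 7.50 CPM with the agomir, against 6.20, 8.50, 7.82 and 8.54 CPM in controls. By CPM agomir 1 was lowest and the rest lay among the controls (log2 fold change -0.15, SE 0.24, 95% interval -0.66 to 0.37). By FPKM agomir 3 was the highest of all, at 3.89.

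**Figure D2:**
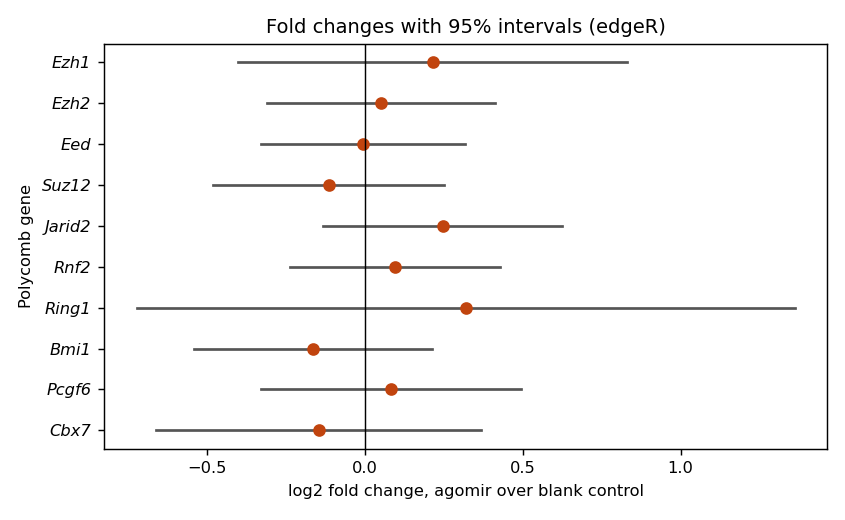
Log2 fold changes, agomir over blank control, of the 10 Polycomb genes with 95% intervals from edgeR (n = 4 libraries per group). Every interval includes 0, and that of Ring1 is the widest, from -0.72 to 1.361.

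The share each paralog took of its family was compared next, since paralogs can take the same place in a complex. Shares of summed FPKM were tested with an exact permutation test over all 70 arrangements of the libraries (two-sided, smallest possible p = 0.0286) and adjusted over 5 shares. After this adjustment a share that alone reached the smallest possible p could not pass the adjusted threshold. The adjusted p-values of 0.893 to 1 therefore cannot decide whether any share by itself differed. The groups overlapped in all 5 shares, and the smallest unadjusted exact permutation p was 0.314, for Bmi1. Ezh1 made up 16.0, 10.1, 7.93 and 7.94% of Ezh1 plus Ezh2 in agomir libraries, against 10.7, 9.29, 7.93 and 8.56% in control libraries. Agomir 1 stood apart and the others lay together (10.5% ± 3.83 against 9.12% ± 1.18, SD, n = 4 each, exact permutation p = 0.657). Ring1 made up 1.26, 2.79, 3.47 and 1.53% of Ring1 plus Rnf2 with the agomir, against 2.33, 2.73, 1.49 and 1.29% in controls. In both groups it was a small fraction (2.26% ± 1.05 against 1.96% ± 0.682, SD, n = 4 each, exact permutation p = 0.6).

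Bmi1 was the larger part of the pair of canonical Pcgf genes Bmi1 and Pcgf2 (Mel18), at 83.7, 83.6, 94.2 and 91.1% in agomir libraries, against 94.6, 87.5, 92.7 and 90.6% in control libraries. Agomir 1 and 2 were lowest, the libraries in which Pcgf2 had 2.1 and 2.08 FPKM; control 2, with 1.9 FPKM, came next (88.2% ± 5.35 against 91.4% ± 3.03, SD, n = 4 each, exact permutation p = 0.314). Among the 6 Pcgf genes the largest mean share of FPKM was that of Pcgf1, of the variant complex with Kdm2b and Bcor, at 39.4% ± 2.82 with the agomir and 39.5% ± 8.90 in controls (SD, n = 4 each). In control 2 Pcgf5 stood above it, at 25.77 against 22.55 FPKM. Pcgf5 followed at 25.4% ± 4.01 against 22.9% ± 6.56, Pcgf6 at 15.6% ± 1.65 against 15.6% ± 2.02 (exact permutation p = 1), Bmi1 at 13.7% ± 1.86 against 15.8% ± 1.44, Pcgf3 at 3.95% ± 0.315 against 4.72% ± 0.387, and Pcgf2 at 1.96% ± 1.12 against 1.504% ± 0.610. Of these 6 shares that of Pcgf6 was the one tested. Genes of variant complexes thus took most of the Pcgf level in either group.

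Cbx7 held the largest share of the summed Polycomb Cbx genes, at 57.2, 46.8, 55.4 and 57.3% in agomir libraries, against 47.3, 53.4, 49.6 and 60.5% in control libraries. The groups overlapped almost fully (54.2% ± 5.00 against 52.7% ± 5.79, SD, n = 4 each, exact permutation p = 0.714). Cbx2 made up 17.8% ± 4.36 with the agomir and 22.1% ± 2.30 in controls, and Cbx8 16.8% ± 5.21 and 13.3% ± 5.26.

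**Figure D3:**
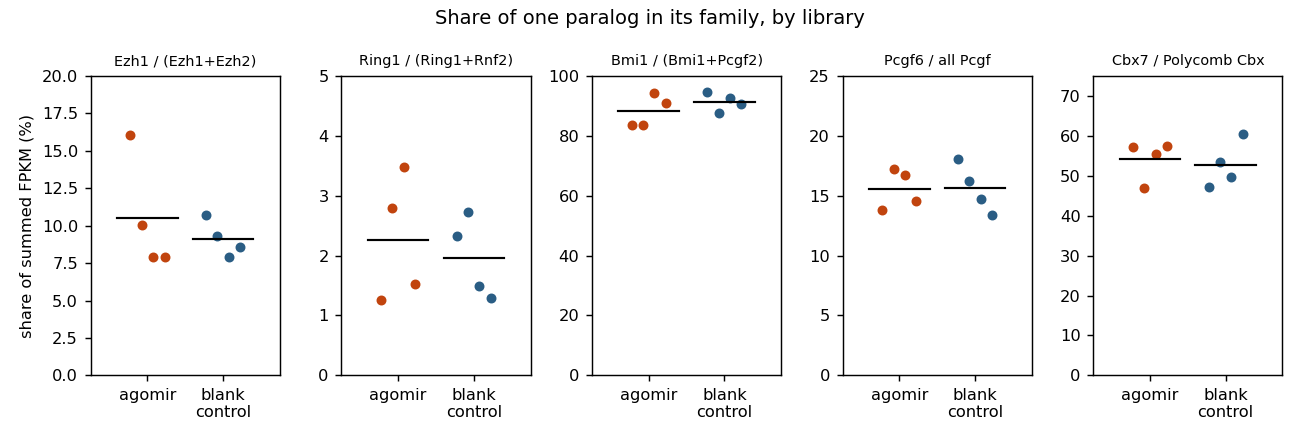
Share (%) of summed FPKM taken by Ezh1, Ring1, Bmi1, Pcgf6 and Cbx7 within their families, 1 point per library, agomir on the left and blank control on the right, with a line at each mean. The groups overlap in all 5 panels, and agomir 1 stands out for Ezh1 at 16.0%.

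Ezh2 and Cbx7 also differed between libraries in the length by which their counts had been scaled. Dividing a count by its FPKM and the library total gives that length. Whether it follows the mix of transcripts assigned to a gene was not tested. For Ezh2 it was 1511, 1628, 2124 and 1657 bases in agomir libraries, against 1721, 1736, 1614 and 1492 bases in control libraries. Agomir 3 was the longest by far, and the longest was 1.42 times the shortest, a spread above that of 92.3% of 8595 genes with at least 50 counts in each library. For Cbx7 it was 2062, 2809, 1627 and 2350 bases with the agomir, against 2367, 2827, 2589 and 2238 bases in controls. Agomir 3 was the shortest, and the ratio of 1.74 exceeded that of 97.1% of genes. Ezh1, Suz12, Jarid2, Ring1 and Pcgf6 varied little, with ratios of at most 1.015 (median of all genes 1.03). GENCODE M21 lists 6 coding transcripts of Ezh2, from 785 to 2787 bases, and 7 of Cbx7, from 364 to 3388.

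**Figure D4:**
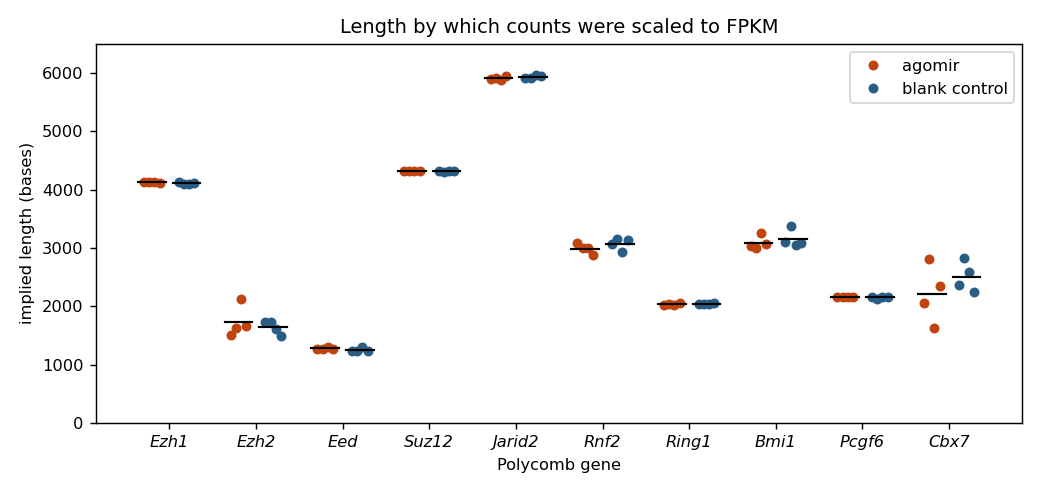
Length in bases by which each gene's count was scaled to FPKM, 1 point per library, 4 agomir libraries on the left and 4 blank control libraries on the right of each gene, with a line at each mean. Ezh2 and Cbx7 spread most, with agomir 3 at 2124 bases for Ezh2 and 1627 for Cbx7.

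The remaining Polycomb genes were read from lists of other PRC2 genes (8), other PRC1 genes (26) and genes that oppose Polycomb (6). Of these 40, 39 were tested, 20 with a fold change above 0 and 19 below, and 0 passed edgeR's adjusted threshold. An unadjusted p under 0.05 was found for 1 of them, Auts2, and its groups were the only ones that did not overlap by CPM. Over all genes tested these shares were 6.38% and 3.89%, so 1 of 39 is no more than the background. Median log2 fold changes were 0.15 for other PRC2 genes, -0.073 for other PRC1 genes and 0.0022 for the opposing genes. The accessory PRC2 gene Mtf2 (PCL2), at 222 ± 75.8 FPKM with the agomir and 202 ± 45.3 FPKM in controls, and the histone-binding gene Rbbp7, at 188 ± 30.4 and 177 ± 24.2 FPKM (SD, n = 4 each), stood at the level of Eed. The related Rbbp4 had 37.2 ± 4.09 FPKM with the agomir and 29.6 ± 7.39 FPKM in controls (log2 fold change 0.35, SE 0.21, edgeR adjusted p = 0.825). Mtf2 varied less by CPM, at 571 ± 70.9 with the agomir and 552 ± 57.0 in controls (SD, n = 4 each). In agomir libraries 1 to 4 it had 149, 279, 296 and 166 FPKM but 531, 595, 658 and 498 CPM. Its FPKM thus also carried a length scaling that differed between libraries.

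Auts2, which joins a PRC1 form built on Pcgf3 or Pcgf5, had 5.82, 15.6, 9.81 and 6.87 CPM in agomir libraries, against 4.81, 2.51, 5.82 and 5.46 CPM in control libraries. Agomir 2 stood well above the others, while agomir 1 was barely above control 3. The log2 fold change was 1.03 (SE 0.36, unadjusted p = 0.0147, edgeR adjusted p = 0.678). Csnk2a1, a kinase subunit of the same complexes, had a log2 fold change of 0.37 (SE 0.20), L3mbtl2, of the Pcgf6 complex, 0.49 (SE 0.29), and Yaf2, which takes the place of Rybp in variant PRC1, -0.29 (SE 0.19). Kdm6b, a demethylase that removes the PRC2 mark, had 27.5, 47.9, 12.5 and 20.1 CPM with the agomir, against 15.98, 12.3, 23.9 and 17.5 CPM in controls. Again agomir 2 was highest and the groups overlapped (log2 fold change 0.63, SE 0.36, edgeR adjusted p = 0.810).

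**Figure D5:**
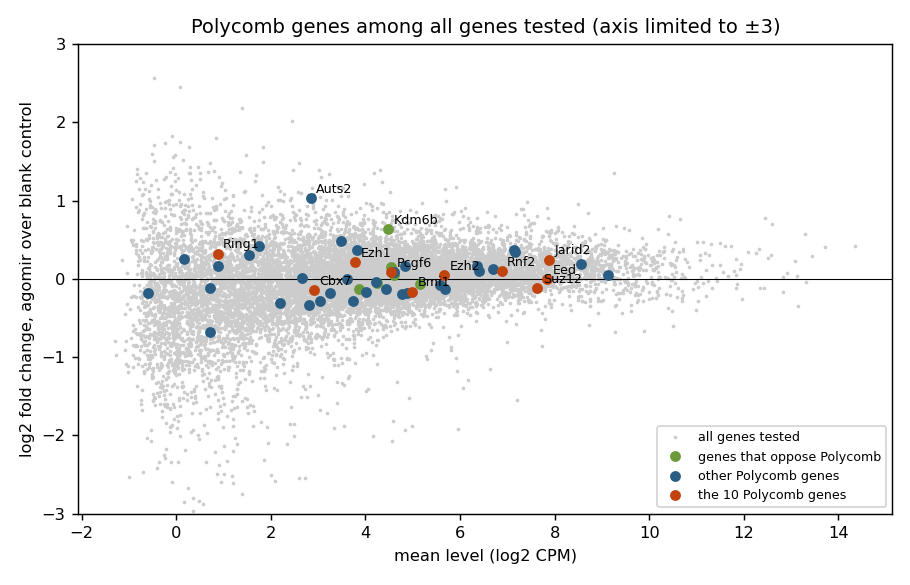
Log2 fold change, agomir over blank control, against mean level (log2 CPM) for the 12366 genes tested (grey), with the 10 Polycomb genes, other Polycomb genes and opposing genes in colour; the vertical axis is limited to ±3. The 10 genes lie between -0.17 and 0.32, and Auts2 at 1.03 lies highest of the coloured points.

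Genes listed as silenced by Polycomb were described last. Whether Polycomb silences them in these pools was not tested. Of 25 developmental regulators that Polycomb holds silent in embryonic stem cells, 21 stayed under 1 FPKM in every library, 4 of them with no count at all. Those are 84% and 16% of the list, against 49.3% and 16.5% of all 22013 genes. Only 6 passed the filter on low counts, and 0 of these had an unadjusted p under 0.05. The highest was Gata4, also a primitive endoderm gene, at 13.3 ± 4.08 FPKM with the agomir and 11.5 ± 2.94 FPKM in controls (SD, n = 4 each). Msx1 had 2.31, 1.83, 0.96 and 2.08 FPKM in agomir libraries, against 0.46, 0.11, 6.75 and 0.57 FPKM in control libraries, with control 3 alone above the agomir range. Of the genes silenced on the maternal allele by the PRC2 mark, 5 were measured. Slc38a4 had 96.7 ± 19.3 FPKM with the agomir and 76.0 ± 27.5 FPKM in controls (edgeR log2 fold change 0.36, SE 0.25, adjusted p = 0.828). Sfmbt2, Gab1, Jade1 and Smoc1 had log2 fold changes of 0.19, 0.13, 0.015 and -0.088. Xist was not analysed here.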

How the data were processed

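The deposited table gives each gene's count and FPKM in each library, per the file headers. The deposited counts were treated as estimated counts, since 1212 of 176104 values were not whole, and were rounded. The deposited FPKM values had been scaled by the authors to length and library total, per the file headers. The submitters' processing notes name HISAT2 2.1.0, StringTie 1.3.1, RSEM, fastp 0.18.0, FastQC, MultiQC, DESeq2 1.36.0 and GRCm39. What each did, the annotation and whether counting used strand is not given in the sources used here. Without strand, overlapping antisense reads cannot be told apart.

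Genes were filtered with filterByExpr (minimum count 10, minimum total 15) and tested in R 4.3.3 with edgeR 4.0.16 (robust quasi-likelihood F test after TMM scaling, Benjamini-Hochberg over all genes, threshold 0.05). Libraries totalled 12246102 to 23147449 counts. SE is the fold change divided by the square root of F. CPM uses TMM-adjusted totals. DESeq2 1.42.0 and limma 3.58.1 gave alternatives, with pseudocounts of 1 and 0.1 for FPKM. Of these procedures, only the edgeR fit was tested on simulated data. All 10 Polycomb genes were described; from the other lists, the genes with the smallest p and highest FPKM, and paralogs used in shares, were eligible to be named. Members and lists were chosen with earlier results of these data known. Some items of the lists are not reported here.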

Additional observations from a re-analysis of the deposited data

Results flagged for a closer look

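Suz12 in the blank control group had 1 library far from the others. The agomir libraries had 181 to 203 CPM. Control 3 had 154 CPM, while the other 3 controls had 217 to 229.9 CPM. The gap from control 3 to the nearest control made up 0.832 of the whole range, above Dixon's 95% critical value for 4 samples. Of 30 groups examined (10 genes and 5 shares in each treatment), this was 1, where chance alone would give about 1.5. Control 3 also had the lowest CPM of Ezh1, Ezh2, Jarid2 and Rnf2.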

How the results depend on the processing

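The number of Polycomb genes past the threshold was 0 under all 17 alternative fits, as was that of the other Polycomb genes. Among all genes DESeq2 called 33, and leaving out 1 library gave 0 to 1 (the 1 without control 4); the cause was not tested. Jarid2, Suz12, Bmi1 and Cbx7 kept their direction throughout. Eed, near 0, turned to 0.012 with DESeq2, 0.012 with relative log expression factors and 0.0038 with no filter. With plain library totals Ezh2 was at -0.074, Rnf2 at -0.030 and Pcgf6 at -0.040. With FPKM and pseudocounts of 1 and 0.1, Ezh2 was at -0.13 and -0.14 and Pcgf6 at -0.028 and -0.029. Ezh2 was at -0.029 with limma-voom and -0.057 without both control 2 and agomir 3.

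Leaving out each library in turn moved the log2 fold change of Ezh1 between -0.11 and 0.35, Ezh2 between -0.051 and 0.11, Eed between -0.044 and 0.045, and Ring1 between -0.027 and 0.56. It moved the difference in share, in percentage points, between -0.47 and 2.22 for Ezh1, -0.10 and 0.64 for Ring1, -5.23 and -1.71 for Bmi1, -0.77 and 0.80 for Pcgf6, and -0.33 and 4.08 for Cbx7. The Pcgf6 share differed by -0.021 points as reported and by 0.93 points with CPM. None of these passed an adjusted threshold. With a library left out, the exact share test has too few arrangements to pass 0.05 at all. With all libraries kept, a share could not pass it alone after adjustment. The cause of the turns was not tested.

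With the replicate number as a block, edgeR called 0 genes and 0 Polycomb genes, with 706 genes at an unadjusted p under 0.05. Nothing in the labels says that the numbers pair the pools. Deviations of same-numbered libraries correlated at -0.067, -0.057, -0.14 and 0.12. Agomir 4 and control 4 correlated best with each other, but not every library did so with its own number. These correlations cannot settle whether pools shared parents or sessions. An exact sign-flip test of the shares within replicate numbers gave adjusted p-values of 0.938 to 1 (with 4 pairs it cannot pass 0.05). Depth limits Ring1 most, at 18 to 53 counts per library.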
